A study of Mus musculus with 6 samples.

Results

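The mitochondrial genome carries 37 genes in the mouse, and all 37 were found among the 56750 rows of the deposited expression table as the rows whose Ensembl identifier has a symbol that starts with mt-. They comprise 13 protein genes, 2 ribosomal RNA genes and 22 transfer RNA genes. The libraries came from LSK cells (lineage-negative, Sca1-positive, cKit-positive bone marrow cells, the fraction that holds blood stem cells and multipotent progenitors), sorted by flow cytometry from C57BL/6 mice. In 3 libraries the donors were mice with DSS-induced colitis (DIC), given 2.5% dextran sulfate sodium for 5 days, and in 3 libraries they were control mice. The labels describe 3 mice per group and give no age, so every p-value below rests on the variation among single libraries, which may be technical.

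Mitochondrial DNA is transcribed from both strands as long precursors, which are cut at the transfer RNAs into rRNAs and mRNAs. Its mRNAs encode core subunits of respiratory complexes I, III, IV and V, while the polymerase and nearly all other factors that copy and read this genome are made from nuclear genes. mt-Nd4l and mt-Nd4 are carried by a shared mRNA, as are mt-Atp8 and mt-Atp6. The nuclear genome also holds old insertions of mitochondrial DNA, and reads from a mitochondrial mRNA can align to such a copy where the sequences match.

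The reading frames within each shared mRNA overlap, by 7 bases for mt-Nd4l with mt-Nd4 and by 43 bases for mt-Atp8 with mt-Atp6. The stretches below, from the GENCODE M21 transcripts (build GRCm38, written 5′ to 3′), show these overlaps in capitals. Gm10222, a pseudogene on chromosome 1 of the nuclear genome, is shown whole beside mt-Nd4l because its 294 bases were identical to bases 1 to 294 of the 297 bases of mt-Nd4l.
mt-Nd4l, whole: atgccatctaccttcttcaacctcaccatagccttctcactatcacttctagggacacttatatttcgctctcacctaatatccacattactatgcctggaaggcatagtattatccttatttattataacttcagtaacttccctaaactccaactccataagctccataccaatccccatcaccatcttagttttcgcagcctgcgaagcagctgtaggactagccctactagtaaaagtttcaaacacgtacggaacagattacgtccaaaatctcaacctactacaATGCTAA
Gm10222, whole: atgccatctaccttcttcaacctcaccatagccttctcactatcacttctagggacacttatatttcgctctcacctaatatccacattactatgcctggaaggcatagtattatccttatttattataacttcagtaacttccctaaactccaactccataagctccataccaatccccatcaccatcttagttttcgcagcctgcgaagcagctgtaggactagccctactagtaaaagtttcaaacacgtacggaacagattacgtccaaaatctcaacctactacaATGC
mt-Nd4, first 60 bases: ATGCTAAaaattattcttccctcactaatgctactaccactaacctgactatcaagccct
mt-Atp8, last 90 bases: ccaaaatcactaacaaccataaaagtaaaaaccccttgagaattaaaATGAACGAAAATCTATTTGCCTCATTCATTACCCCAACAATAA
mt-Atp6, first 60 bases: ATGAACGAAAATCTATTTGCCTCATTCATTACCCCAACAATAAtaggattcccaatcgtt

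Apart from mt-Nd4l, the mitochondrial mRNAs ranked between 1 and 875 among all genes of a library, and the summed share of the 13 differed more between DIC libraries than between the groups. As a part of all TPM (a level per length, scaled to the library total), the protein genes took 3.22%, 7.20% and 3.64% in DIC 1, 2 and 3, and 4.22%, 6.47% and 5.39% in controls 1, 2 and 4. DIC 2 was the highest of the 6 libraries and DIC 1 and DIC 3 the lowest, so the groups overlapped. The mean share was 4.69% ± 2.19 (SD) for the 3 DIC libraries and 5.36% ± 1.12 (SD) for the 3 controls, a difference of -0.68 percentage points (exact permutation test, two-sided, p = 0.7). No exact test of 3 libraries against 3 can give a p below 0.1. In bulk RNA, fewer cells of a type and less RNA per cell cannot be told apart.

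Sums of neutrophil and erythroid transcripts also differed between these libraries. With all libraries, no gene of the cell marker lists passed the limma test described below (0 higher and 0 lower, smallest adjusted p 0.212). At an unadjusted p below 0.05, 16 of 16 neutrophil genes were higher (6.43% of all tested genes). All 5 basophil and mast cell genes were lower (13.8%). Of 9 erythroid genes 4 were higher, and of 7 LSK and stem cell genes 1 was lower. The groups did not overlap for 13 neutrophil and 5 basophil and mast cell genes (7.08% and 18.4%). Without control 2, 12 neutrophil genes and 1 LSK gene rose (3.93% of all genes). There 3 basophil and mast cell genes fell (8.45%). The 16 genes of a neutrophil list summed to 23.5%, 15.9% and 19.5% of TPM in DIC 1, 2 and 3 and to 4.34%, 12.9% and 3.11% in controls 1, 2 and 4, and none of its markers was at 0 in any library. The 9 genes of an erythroid list took 0.0744%, 0.0191% and 0.0459% in DIC and 0.0207%, 0.0188% and 0.0244% in control, so DIC 1 and DIC 3 stood highest on it. The 5 basophil and mast cell genes summed to 298 to 479 TPM in DIC and 906 to 3350 TPM in control. The 7 genes of the LSK sort and of stem cells, Kit and Ly6a among them, summed to 206 to 241 TPM in DIC and 201 to 318 TPM in control, with none at 0. When the neutrophil list was taken out of the total, all members took 6.26% ± 2.47 of the remaining TPM in DIC and 6.20% ± 1.60 in control (SD over 3 libraries each; exact permutation test, two-sided, p = 1). Taking out the list changes only the total, and any mitochondrial RNA of neutrophils stays in the sum of the members. The part of neutrophils, erythroid cells and basophils in the result was not tested.

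**Figure D1:**
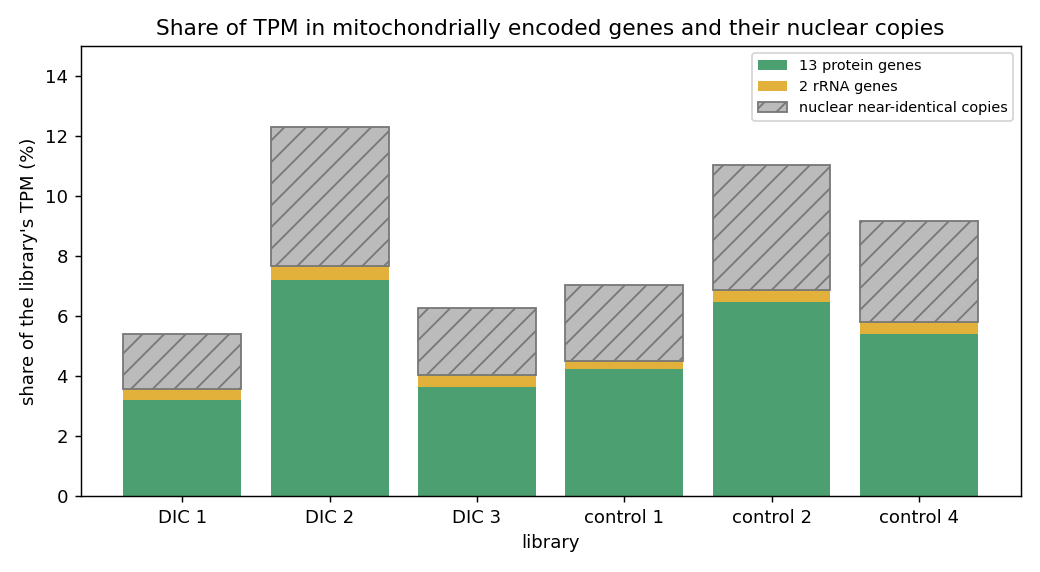
Share of each library's TPM (y axis, percent) in the 13 protein genes, the 2 rRNA genes and 11 nuclear near-identical copies (stacked bars), for DIC libraries (left) and controls (right). DIC 2 is the highest bar and DIC 1 and DIC 3 are the lowest, while the controls lie between.

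The rRNA genes of both ribosomal subunits were detected in every library, and their groups overlapped. They took 0.342%, 0.459% and 0.390% of TPM in DIC 1, 2 and 3 and 0.286%, 0.406% and 0.407% in controls 1, 2 and 4 (exact permutation test, two-sided, p = 0.7, and 0.7 after Benjamini-Hochberg adjustment over 3 classes). mt-Rnr2, the RNA of the large mitochondrial ribosomal subunit, measured 2367, 3604 and 2738 TPM in DIC and 2257, 3163 and 2778 TPM in control. The RNA of the small subunit, mt-Rnr1, measured 1055, 988 and 1167 TPM in DIC and 602, 899.8 and 1291 TPM in control. DIC 2, the highest library for the mRNAs, was the lowest DIC library for mt-Rnr1. Relative to the summed TPM of the 13 protein genes, the rRNAs stood at 10.6%, 6.38% and 10.7% in DIC and at 6.77%, 6.28% and 7.55% in control (exact permutation test, two-sided, p = 0.3). In textbook accounts the mitochondrial rRNAs carry at most short poly(A) tails, and the low-input kit named in the labels primes on poly(A); what this does to their TPM was not tested.

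All 22 transfer RNA genes, which supply the tRNAs of mitochondrial translation, were listed at 0 in every DIC and control library. They are 59 to 75 bases long in the reference annotation, under the 150 bases of a read. An exact 0 in such a table can be a failed estimate, so these values give no statement about tRNA levels.

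Levels of the mRNAs spanned a wide range. As deposited, mt-Atp6, a subunit of the proton channel of ATP synthase, was highest over all 6 libraries, at 15860 ± 4966 TPM (SD, n = 6), and it ranked between 1 and 5 among all genes of a library. It was followed by mt-Co2, mt-Atp8, mt-Co1 and mt-Cytb, and each of the first 4 genes in this order exceeded the next in 6 of 6 libraries. The next were mt-Nd1, mt-Rnr2 and mt-Nd4, where mt-Cytb exceeded mt-Nd1 in 5 of 6 libraries. mt-Atp8 and mt-Co1 were nearly level in DIC 3, at 4608 and 4606 TPM. Neighbours with no consistent order were mt-Rnr1 and mt-Co3, at 1000.4 and 978 TPM (the first was higher in 3 of 6), mt-Co3 and mt-Nd2 (2 of 6), and mt-Nd6 and mt-Nd3, at 644 and 643 TPM (2 of 6). The lowest was mt-Nd4l, at 0 to 75.0 TPM. This order changed once nuclear copies, described below, were joined with their genes: mt-Co3 was then the highest protein gene and mt-Nd6 the lowest. mt-Co1 then exceeded mt-Co2, and mt-Co2 exceeded mt-Atp8, each in 6 of 6 libraries.

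**Figure D2:**
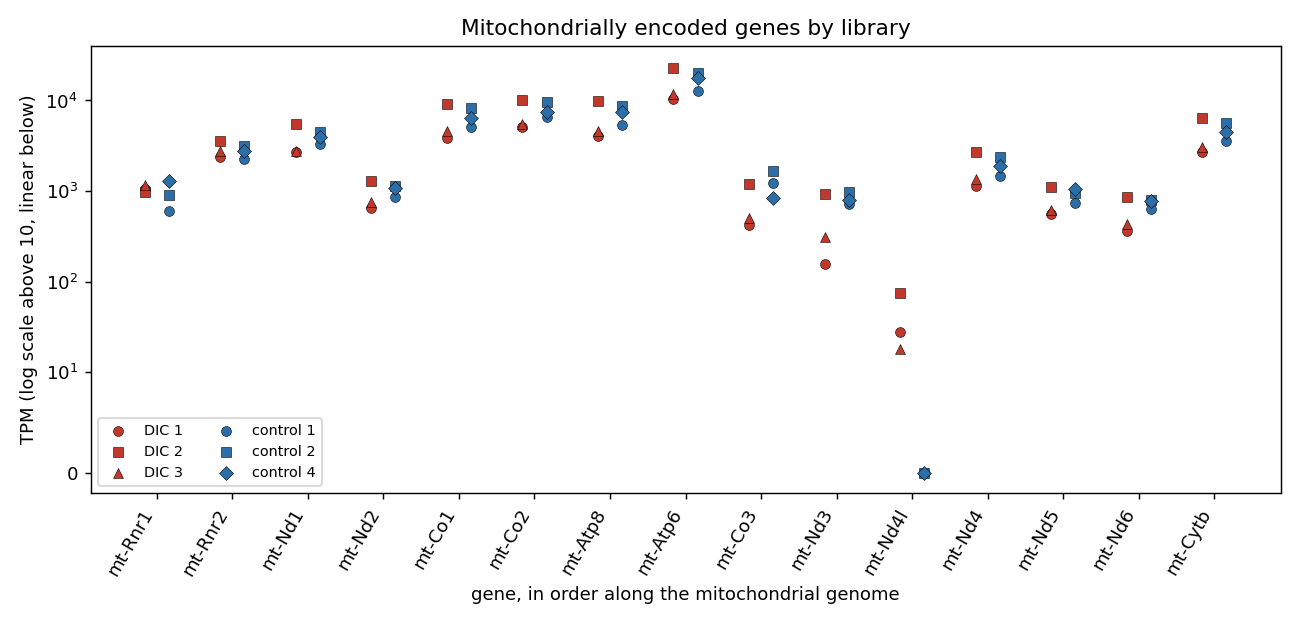
TPM (y axis, log scale above 10 and linear below) of the 13 protein genes and 2 rRNA genes in order along the mitochondrial genome, 1 point per library, DIC left of control for each gene. DIC 2 (red squares) lies above or among the controls for most genes, and mt-Nd4l is at 0 in all 3 controls.

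Across all genes, the comparison of DIC with control was fitted with limma on log2(TPM + 1), where 5 of 13496 tested genes (0.037%) rose and 3 (0.0222%) fell at a Benjamini-Hochberg adjusted p below 0.05. Of the 37 members 15 passed the filter of 1 TPM in 3 libraries. Of the 13 protein genes 1, mt-Nd4l, was called higher and 0 were called lower. Its 3 DIC values alone carried it past the filter, so its call is described with its copy below and supports nothing by itself. With negative fold changes for 12 of the 13, against 58.5% of all tested genes, the median log2 fold change was -0.25, against -0.08 over all tested genes. These mRNAs share precursors, so they are not independent of each other. The groups did not overlap for 1 of the 13 in the higher direction, mt-Nd4l again (7.08% of all tested genes), and for 0 in the lower direction (18.4%).

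Complex I pumps protons with electrons from NADH, and 7 of its subunits are mitochondrially encoded. mt-Nd1 measured 2684, 5551 and 2758 TPM in DIC 1, 2 and 3 and 3318, 4537 and 3985 TPM in controls 1, 2 and 4. mt-Nd2 measured 651, 1306 and 757 TPM in DIC and 872, 1137 and 1089 TPM in control. For both genes DIC 1 and DIC 3 lay below every control and DIC 2 above every control. The same held for mt-Nd4, mt-Nd5 and mt-Nd6, of which mt-Nd4 measured 1143, 2700 and 1376 TPM in DIC and 1457, 2390 and 1908 TPM in control. mt-Nd5 measured 563, 1115 and 616 TPM in DIC and 737, 965 and 1061 TPM in control. Over these 5 genes, log2 fold changes ran from -0.52 ± 0.32 (SE) for mt-Nd6 to -0.18 ± 0.32 for mt-Nd1, with limma adjusted p from 0.386 to 0.775.

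mt-Nd6 is the only protein gene encoded on the opposite strand, and it overlaps mt-Nd5 by 14 bases. It measured 365, 860 and 428 TPM in DIC 1, 2 and 3 and 627, 803 and 783 TPM in controls 1, 2 and 4. As a part of the summed TPM of the 13 protein genes, it held 1.13%, 1.19% and 1.18% in DIC and 1.48%, 1.24% and 1.45% in control. Every DIC value lay below every control value, the smallest p that 3 against 3 allows (exact permutation test, two-sided, p = 0.1, and 0.433 adjusted over the 13 genes). On this share mt-Nd3, lower in DIC, and mt-Nd4l, higher in DIC, had the same exact p of 0.1. For mt-Nd4l that p was fixed in advance, since each DIC value and no control value was above 0. The order of mt-Nd6 stayed when the nuclear copies described below were counted with their genes, at 0.779% to 0.790% in DIC and 0.823% to 1.01% in control (exact p = 0.1, adjusted 0.827). The labels do not say that the library kept strand, and without strand a read of mt-Nd6 cannot be told from a read of the opposite strand.

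The remaining complex I genes, mt-Nd3 and mt-Nd4l, departed from this pattern. mt-Nd3 measured 155, 921 and 309 TPM in DIC 1, 2 and 3 and 713, 970 and 788 TPM in controls 1, 2 and 4. Its log2 fold change, -1.20 ± 0.58 (SE), was the most negative among the members and did not pass (limma adjusted p = 0.286). DIC 2 was 5.93 times DIC 1 for mt-Nd3, against 1.97 to 2.79 times for the other 12 protein genes. mt-Nd4l had values of 27.9 in DIC 1, 75.0 in DIC 2 and 17.9 TPM in DIC 3, while all of its control values were 0 (limma adjusted p = 0.0206).

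mt-Cytb, the complex III subunit that hands electrons between quinone sites, measured 2679, 6422 and 3096 TPM in DIC 1, 2 and 3. In controls 1, 2 and 4 it measured 3576, 5622 and 4525 TPM, a log2 fold change of -0.26 ± 0.37 (SE; limma adjusted p = 0.715).

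Complex IV reduces oxygen, and mt-Co1, mt-Co2 and mt-Co3 form its core. mt-Co1, which holds the oxygen-reducing centre, measured 3837, 9235 and 4606 TPM in DIC and 5163, 8281 and 6351 TPM in control. mt-Co2, which accepts electrons from cytochrome c, measured 5138, 10128 and 5535 TPM in DIC and 6591, 9724 and 7507 TPM in control. Both followed the library order of complex I. mt-Co3 measured 427, 1191 and 506 TPM in DIC and 1228, 1668 and 849.7 TPM in control, with a log2 fold change of -0.92 ± 0.42 (SE) that did not pass (limma adjusted p = 0.27). It was far below mt-Co1 and mt-Co2 in all 6 libraries.

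Complex V, the ATP synthase, takes mt-Atp6 and mt-Atp8 from the mitochondrial genome. mt-Atp6 measured 10454, 22713 and 11755 TPM in DIC and 12646, 19956 and 17638 TPM in control (log2 fold change -0.22 ± 0.39, SE; limma adjusted p = 0.771). mt-Atp8 measured 4089, 9773 and 4608 TPM in DIC and 5315, 8636 and 7434 TPM in control (log2 fold change -0.30 ± 0.38, SE; limma adjusted p = 0.685). The ratio of mt-Atp8 to mt-Atp6 was narrow, at 39.1%, 43.0% and 39.2% in DIC and 42.0%, 43.3% and 42.1% in control (exact permutation test, two-sided, p = 0.3). The ratio of mt-Nd4l to mt-Nd4, the other overlapping pair, was 2.44%, 2.78% and 1.30% in DIC and 0 in each control (exact p = 0.1, the smallest possible). Since mt-Nd4l was above 0 in each DIC library and in no control, any such ratio separates the groups. This p therefore adds no support to the call of mt-Nd4l. When each pair was joined by length-weighted TPM, the log2 fold change was -0.21 for mt-Nd4 with mt-Nd4l and -0.23 for mt-Atp6 with mt-Atp8, and neither passed. mt-Nd4l has 7 of its 297 bases in common with mt-Nd4, and how reads of the shared mRNA were divided within the pair was not tested.

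Nuclear near-identical copies held much of the signal. A search of the reference transcripts found 11 nuclear genes with a match of at least 95% identity over at least 200 bases to a member, and all 11 had a row in the table. Of these, 6 were above 0 and 5 were listed at 0 in every library. Together they took 1.85%, 4.64% and 2.26% of TPM in DIC 1, 2 and 3 and 2.51%, 4.17% and 3.36% in controls 1, 2 and 4. Members and copies combined took 8.00% ± 3.75 in DIC and 9.07% ± 2.01 in control (SD over 3 libraries each; exact permutation test, two-sided, p = 0.7). Like the summed members, the summed copies were highest in DIC 2 and lowest in DIC 1.

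Gm10222, the copy of mt-Nd4l printed above, measured 699, 1386 and 820 TPM in DIC 1, 2 and 3 and 697, 1219 and 1316 TPM in controls 1, 2 and 4. It did not pass the test (log2 fold change -0.16 ± 0.33, SE; limma adjusted p = 0.804), and the groups overlapped. In every library it stood far above mt-Nd4l itself. Joined by length-weighted TPM, mt-Nd4l with Gm10222 measured 720, 1447 and 829.8 TPM in DIC and 689.7, 1207 and 1303 TPM in control. On this sum the log2 fold change was -0.11 ± 0.34 (SE; limma adjusted p = 0.873), and the call was lost. mt-Nd4l held 3.88%, 5.18% and 2.16% of the joined value in DIC and 0 in each control.

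Relative to mt-Nd4, mt-Nd4l with Gm10222 stood at 63.0%, 53.6% and 60.3% in DIC and 47.3%, 50.5% and 68.3% in control (exact permutation test, two-sided, p = 0.7). As deposited, the adjusted p of mt-Nd4l ran from 0.0137 to 0.163 over the other settings of the same fit that tested it. It was above 0.05 with no filter on low values (0.16), without DIC 1 (0.127), without control 1 (0.151) and without control 4 (0.163).

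**Figure D3:**
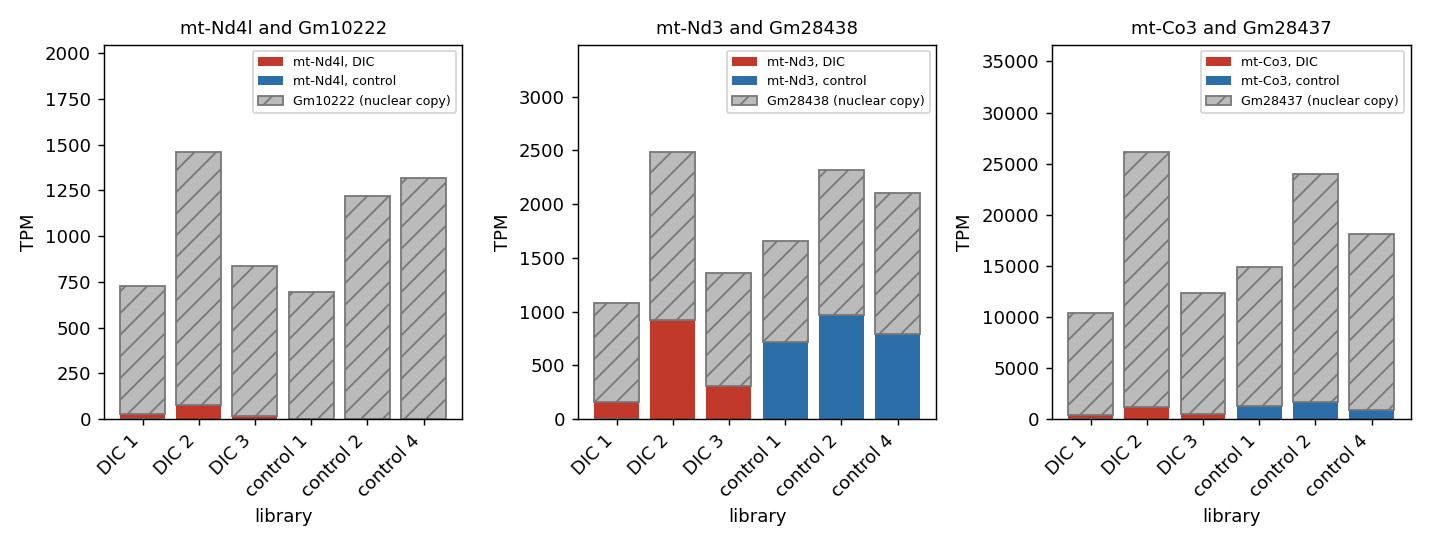
TPM (y axes) of mt-Nd4l, mt-Nd3 and mt-Co3 (coloured, red for DIC and blue for control) stacked with their nuclear copies Gm10222, Gm28438 and Gm28437 (hatched grey) in each library. The copy holds most of each bar, the coloured part of mt-Nd4l is absent in the 3 controls, and the whole bars of the groups overlap.

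mt-Nd3 and mt-Co3 had such copies as well. Gm28438, on chromosome 1, covers bases 1 to 345 of the 348 bases of mt-Nd3 with 1 difference, T3C, counted from the first base of mt-Nd3 with the member's base first. The first 33 bases of each are shown with that base in capitals.
mt-Nd3: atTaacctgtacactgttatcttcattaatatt
Gm28438: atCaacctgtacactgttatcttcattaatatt
Gm28438 measured 929, 1569 and 1052 TPM in DIC 1, 2 and 3 and 943, 1344 and 1312 TPM in controls 1, 2 and 4. mt-Nd3 held 14.4%, 37.2% and 22.9% of the joined value in DIC and 43.3%, 42.1% and 37.7% in control, so every DIC library gave the mitochondrial gene a smaller part (exact permutation test, two-sided, p = 0.1, adjusted 0.125 over 5 genes). The joined value was 1076, 2476 and 1352 TPM in DIC and 1648, 2303 and 2089 TPM in control. Its log2 fold change was -0.38 ± 0.32 (SE; limma adjusted p = 0.52), and DIC 2 was 2.30 times DIC 1, within the range of the other genes.

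Gm28437, also on chromosome 1, is identical to mt-Co3 over its 783 bases. It measured 9955, 24984 and 11828 TPM in DIC and 13620, 22345 and 17273 TPM in control, more than any member in 4 of 6 libraries (DIC 2, DIC 3, control 1 and control 2). mt-Co3 held 4.12%, 4.56% and 4.11% of the joined value in DIC and 8.28%, 6.95% and 4.69% in control, again lower in every DIC library (exact permutation test, two-sided, p = 0.1, adjusted 0.125). Joined, mt-Co3 measured 10369, 26144 and 12319 TPM in DIC and 14830, 23984 and 18100 TPM in control (log2 fold change -0.32 ± 0.42, SE; limma adjusted p = 0.696). That level was above mt-Atp6, its neighbour on the genome, in 5 of 6 libraries, at a mean of 17625 against 15860 TPM over all 6.

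For mt-Co1 and mt-Co2 the mitochondrial gene, and not its copies, held the larger part of the joined value in every library. mt-Co1 matched Gm29216 at 99.8% over 483 bases and Gm13340 at 97.6% over 1545 bases, which averaged 8727 and 742 TPM in DIC and 10498 and 869 TPM in control. mt-Co1 held 62.6% to 62.7% of the joined value in DIC and 59.3% to 62.0% in control (exact p = 0.1, adjusted 0.125). mt-Co2 matched Gm28661 without a difference over 681 bases, and held 74.1% to 87.1% of the joined value in DIC and 77.0% to 83.9% in control (exact p = 0.9). The copies of mt-Atp6, mt-Nd4, mt-Nd2 and mt-Nd5 and 1 further copy of mt-Co2 (95.9% over 684 bases) were listed at 0 throughout. Gm10925 and Gm28439 were among these, although they match mt-Atp6 and mt-Nd4 without a difference over 678 and 876 bases. The division of the signal within such a pair varied from gene to gene, and sequence alone cannot assign a read where the bases are the same.

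With the copies joined, all 13 protein genes had negative log2 fold changes, from -0.52 for mt-Nd6 to -0.11 for mt-Nd4l, with a median of -0.26. The number with a negative value was 11 without DIC 1, and 12 without control 2, without control 4 or with the replicate block, and in each of these settings mt-Nd4l was above 0. None passed (0 higher and 0 lower by limma, 0 at an unadjusted p below 0.05), while 4 of 13490 genes (0.0297%) rose and 2 (0.0148%) fell in that fit. DIC 2 was then the highest library for 13 of 13 genes, and DIC 1 and DIC 3 were the lowest pair for 12. Without DIC 2 the median was -0.63 and without DIC 1 it was -0.03. Among the 13 shares of the joined total, the widest difference was -0.759 percentage points, for mt-Co3 at 23.0% ± 0.95 in DIC against 23.7% ± 1.02 in control (SD, 3 libraries each). mt-Co3 also held the largest mean share in both groups, and its groups overlapped (exact permutation test, two-sided, p = 0.5, adjusted 0.827).

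**Figure D4:**
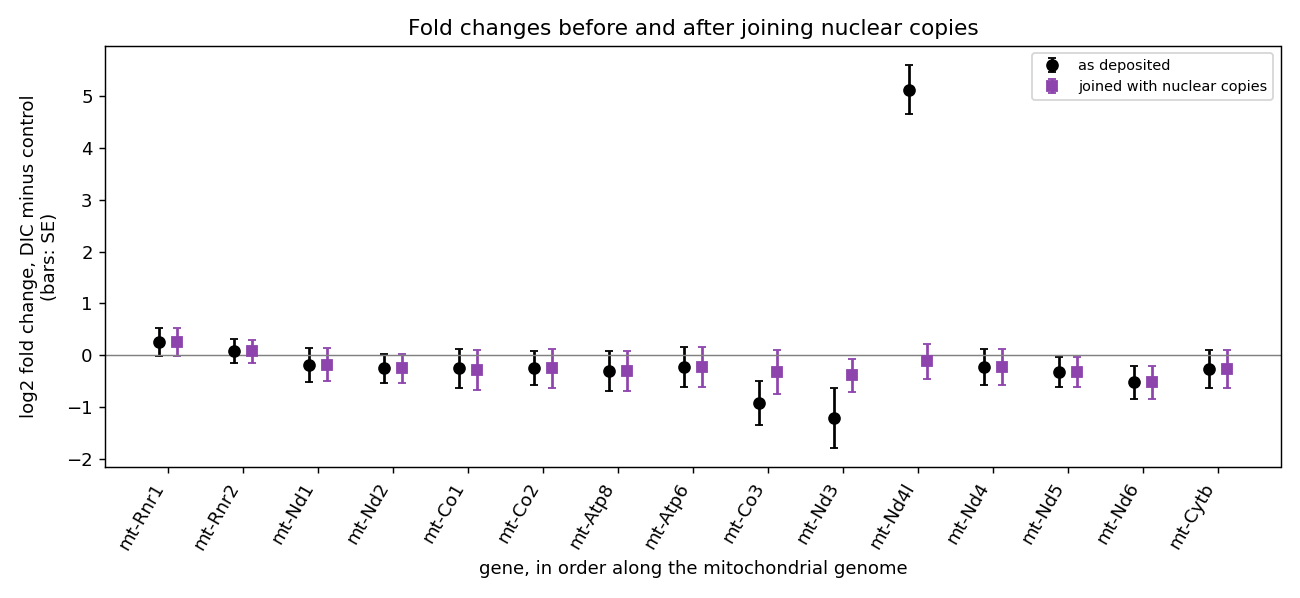
Log2 fold change of DIC minus control (y axis; bars, SE) for each gene along the mitochondrial genome, as deposited (black circles) and joined with nuclear copies (purple squares). mt-Nd4l, mt-Nd3 and mt-Co3 stand apart as deposited and lie with the other genes once joined; the deposited point of mt-Nd4l depends on the pseudocount, since its controls are at 0.

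Nuclear genes that copy, read and translate the mitochondrial genome mostly had negative fold changes (71 of the 95 tested, against 58.5% of all tested genes), but none passed the test. The 6 lists hold 97 genes. With limma 0 rose and 0 fell, 0 were higher and 14 lower at an unadjusted p below 0.05 (6.43% and 13.8% of all tested genes), and the median log2 fold change was -0.12. The groups did not overlap for 2 higher and 21 lower, where 7.08% and 18.4% of all tested genes did not. Without control 2, 6 of them fell and 0 rose, where 8.45% of all genes fell and 3.93% rose.

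The transcription list had 7 of 9 negative fold changes and a median of -0.09. Polrmt, the mitochondrial RNA polymerase, averaged 12.8 ± 2.55 TPM in DIC against 18.1 ± 2.60 TPM in control (SD, 3 libraries each). Its partner Tfb2m averaged 14.2 ± 0.67 TPM in DIC against 20.01 ± 2.23 TPM in control. The log2 fold changes were -0.48 ± 0.19 for Polrmt and -0.46 ± 0.14 for Tfb2m (SE; limma adjusted p = 0.23 and 0.212). Tfb1m, an rRNA methyltransferase, and Mterf1b, a terminator-family gene, were at 0.17 and -0.29. In the list for copying of mitochondrial DNA 7 of 11 were negative (median -0.07), with Ssbp1, the single-strand binding protein, at -0.28 and the polymerase subunit Polg2 at -0.57. Top1mt, the mitochondrial topoisomerase, was at -0.38 and Tk2, a thymidine kinase, at 0.33.

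The RNA-processing list had 28 of 35 negative fold changes and a median of -0.23, the most negative of the 6 lists with all libraries (without control 4 it was -0.21, against -0.23 for the tRNA synthetases). Trit1 and Trmt5, which modify tRNAs, were at -0.66 and -0.51, and Fastk and Tbrg4, members of the FASTK family of mitochondrial RNA regulators, were both at -0.39. Among the tRNA synthetases and related enzymes 16 of 21 were negative (median -0.10), with Yars2 at -0.40, Gatb at -0.45, Ears2 at -0.37 and Sars2 at -0.32. In the translation list 10 of 12 were negative (median -0.08). There the elongation factor Tufm averaged 75.8 ± 13.8 TPM in DIC against 107 ± 23.3 TPM in control (SD, 3 libraries each). Its exchange factor Tsfm averaged 37.2 ± 2.62 TPM in DIC against 51.8 ± 10.4 TPM in control. Oxa1l, the inner-membrane insertase, was at -0.33 and Letm1, an ion exchanger, at -0.24. The biogenesis regulators were split, with 3 of 7 negative (median 0.03): Yy1 at -0.32, Gabpa at 0.15, Pprc1 at 0.18 and Nrf1 at -0.10. The smallest limma adjusted p over the 6 lists was 0.212.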

How the data were processed

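Per the labels' protocols, TRIzol RNA went into a SMART-Seq v4 low-input kit, and read pairs of 150 bases were sequenced. The authors deposited 1 table of TPM values per gene, written with 2 decimals. Trimming, alignment and assembly tools in the submitters' processing notes are fastp 0.19.5, HISAT2 2.1.0 and StringTie 2.1.2, with build GRCm39; the annotation release and the treatment of multi-mapped reads are not given in the sources used here. TPM keeps no depth, so no counting interval could be given. Libraries are numbered as the columns of the table are. Groups were clear, but control columns 1 and 4 could not be tied to single samples. No column of values was left unused.

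Symbols, lengths, overlaps and sequences came from GENCODE M21 (GRCm38), matched by identifier to 52081 rows; no coordinates are given because the builds differ. Copies were found with BLAST 2.17.0 and joined by length-weighted TPM, a step added after seeing the data. Genes with at least 1 TPM in 3 of 6 libraries were fitted as log2(TPM + 1) with limma 3.58.1 in R 4.3.3 (mean-variance trend, group as the only term, two-sided, Benjamini-Hochberg, threshold 0.05); fold changes on this scale understate changes of low genes. Shares and ratios had exact permutation tests over 20 splits. On simulated data the fit recovered 42.9% of genes changed by a log2 of 1 and 98.2% of those changed by 3, among 13496 genes. The simulated noise was drawn independently for each gene, without variation shared by the genes of a library, so these rates need not hold here.

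Members and lists were chosen with earlier results of these data known. The text names every protein and rRNA gene, copies above 1 TPM on average, and the 4 genes of lowest p in each list of nuclear mitochondrial factors; the cell marker lists are given as sums. Gm10925 and Gm28439, at 0, fall outside this rule and were named after their values were seen. Of 134 list entries 1 found no row. Alternatives were the pseudocount, the filter, scaling, the trend, joined genes, leaving out each library and the column number as a block.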

Additional observations from a re-analysis of the deposited data

How the results depend on the processing

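Of 263 alternative values for single members, 243 kept their direction and their side of the threshold. This count is no measure of stability, since settings that change only the filter or the trend cannot change a fold change. For every member but mt-Nd4l, keeping its side means only that it stayed uncalled. The call of mt-Nd4l was lost in several settings: members called higher numbered 0 with nuclear copies joined (also with the replicate block), 0 with mt-Nd4l joined to mt-Nd4 and 0 with no filter, and 0 or 1 with 1 library left out. With its copy joined, the log2 value of mt-Nd4l was -0.11, and its sign went both ways, at -0.41 without DIC 2, -0.40 without control 1 and -0.0090 without DIC 3, but 0.16 with the replicate block, 0.093 without DIC 1, 0.063 without control 4 and 0.0073 without control 2. Protein genes with a negative value numbered 10 to 12 as deposited and 11 to 13 with copies joined. Members called lower numbered 0 in each setting.

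Among single genes, the sign turned for mt-Nd1 after rescaling without the neutrophil list (0.032), and for mt-Nd2 (0.069) and mt-Nd4 (0.022) after quantile normalization. With 1 library left out, mt-Rnr1 ran from -0.014 to 0.54, mt-Rnr2 from -0.089 to 0.21, mt-Co1 from -0.62 to 0.010 and mt-Nd4 from -0.58 to 0.036. Rescaling without the neutrophil list moved the median of all genes to 0.11 and that of the protein genes to -0.04. The difference in share ran from -1.93 to 0.0562 percentage points for protein genes, -0.00929 to 0.0585 for rRNA and -1.93 to 0.115 for all members, and was 0.0591 for all members without the neutrophil list. The causes were not tested.

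Over all genes, 3 rose and 5 fell with the replicate block, 0 and 0 with no filter (3241 at an unadjusted p below 0.05), 8 rose on the total without mitochondrial genes, 2 rose at a pseudocount of 0.1 and 1 fell after quantile normalization. With 1 library left out, 0 to 530 rose and 0 to 1141 fell; the high counts came without control 2 and the counts of 0 without DIC 1 or control 4 (1239 and 1458 at an unadjusted p below 0.05). Of the nuclear mitochondrial factors 0 to 6 fell. Column numbers are shared by 2 pairs of libraries, whose deviations correlated at -0.07 and -0.10. With so few libraries, and control columns 1 and 4 not tied to single samples, this cannot decide whether the numbers pair samples. Under the replicate block only DIC 1, DIC 2, control 1 and control 2 set the group difference, since DIC 3 and control 4 share no number. mt-Nd4l was called there, at a log2 value of 5.55, the same as without DIC 3. Depth is unknown, so a 0 cannot be given a limit.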
